A study of Mus musculus with 10 samples.

Results

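The BCL2 family sets the threshold for mitochondrial apoptosis, and 10 of its genes were followed in mouse islets with and without β cell FIT2. They were chosen by name as a working set of inhibitors (Bcl2, Bcl2l1, Mcl1), effectors (Bax, Bak1) and BH3-only genes (Bid, Bad, Bbc3, Pmaip1, Bcl2l11). All 10 have 1 row each among the 47340 genes of the deposited table. The table holds FPKM, fragments of a transcript scaled to its length and to the reads mapped in the library, of poly(A) RNA from isolated islets, with 1 library from each of 10 mice.

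Of these mice, 5 were floxed controls (FL), FIT2 fl/fl littermates whose genotype the labels give as wild type, and 5 were βFIT2KO mice (KO), in which the same floxed allele was combined with Cre recombinase under the rat insulin promoter. FIT2 is the ER protein encoded by Fitm2 that takes part in lipid droplet formation. All were male, 12 wk old and fed chow, and their islets recovered overnight in culture before RNA was taken. FL mice carried no Cre and no Cre-only islets are among these libraries, so an effect of Cre and one of FIT2 loss cannot be told apart here. Fitm2 was at 15.5 to 37.1 FPKM in FL and 4.30 to 9.13 FPKM in KO, with every KO library under every FL library, and islets also hold cells in which this promoter is not active.

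The inhibitors, among them BCL2, BCL-xL (from Bcl2l1) and MCL1, hold the effectors BAX and BAK in check. BH3-only proteins such as BIM (from Bcl2l11), PUMA (from Bbc3), NOXA (from Pmaip1), BID and BAD sense stress and bind the inhibitors through a short helix, the BH3 domain, and free effectors permeabilize the outer mitochondrial membrane and release cytochrome c. In β cells, ER stress and fatty acids are known to engage this pathway, with CHOP among the factors involved, and many members are further controlled as proteins, by cleavage, phosphorylation or turnover, which RNA does not show.

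The coding bases of the BH3 core are shown because this stretch is what the 3 classes have in common. In the principal coding sequence of GENCODE release M21 (GRCm38) the search looked for a leucine codon, any 3 codons, a codon for glycine, alanine or serine, and an aspartate codon. It matched 1 time in each of 9 members and 2 times in Pmaip1, whose sequence is not printed. The same 6-codon pattern occurs in 33.8% of 21526 principal proteins, so a match by itself does not mark a BH3 domain. Each line gives 48 bases of the coding strand, 5′ to 3′, and the capitals mark the 18 bases of the matched core.
Bcl2: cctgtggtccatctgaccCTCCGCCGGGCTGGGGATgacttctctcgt
Bcl2l1: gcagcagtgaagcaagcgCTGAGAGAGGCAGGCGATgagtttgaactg
Mcl1: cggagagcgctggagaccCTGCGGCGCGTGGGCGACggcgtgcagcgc
Bax: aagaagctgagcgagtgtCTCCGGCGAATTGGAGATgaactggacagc
Bak1: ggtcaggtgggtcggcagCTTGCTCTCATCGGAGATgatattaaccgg
Bid: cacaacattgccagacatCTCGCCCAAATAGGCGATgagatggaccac
Bad: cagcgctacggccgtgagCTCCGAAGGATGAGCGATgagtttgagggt
Bbc3: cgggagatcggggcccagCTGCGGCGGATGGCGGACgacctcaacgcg
Bcl2l11: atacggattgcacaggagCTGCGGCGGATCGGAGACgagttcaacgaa

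These stretches lie in coding exons at chr1:106712572-106712619 (minus strand), chr2:152829694-152829741 (minus), chr3:95659418-95659465 (plus), chr7:45465994-45466041 (minus), chr17:27022528-27022575 (minus), chr6:120897286-120897333 (minus), chr19:6950774-6950821 (plus), chr7:16313755-16313802 (plus) and chr2:128147132-128147179 (plus), in the order of the lines. No 2 cores are the same, and pairs of genes share 7 to 15 of the 18 bases. The closest pair is Bbc3 and Bcl2l11, with 15 bases in common, and the most distant is Bcl2l1 and Bak1, with 7.

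The members spanned more than 2 orders of magnitude in both groups, and the order of levels was led by the effector Bax and the inhibitor Bcl2l1. Over the 10 libraries the mean was 94.6 FPKM for Bax, 49.8 for Bcl2l1, 35.3 for Mcl1, 21.4 for Bad, 10.8 for Bak1, 8.15 for Bbc3, 7.55 for Bcl2l11, 6.75 for Bid, 0.925 for Pmaip1 and 0.594 for Bcl2. From Bax down to Bak1 no neighbors in this order overlapped in any library. Bak1 and Bbc3, Bbc3 and Bcl2l11, Bcl2l11 and Bid, and Pmaip1 and Bcl2 overlapped, so their order is not fixed by these libraries. Among the genes tested, Bax stood at the 91.3rd percentile of mean level and Bid at the 32.0th, and only Pmaip1 and Bcl2 fell near the bottom.

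**Figure D1:**
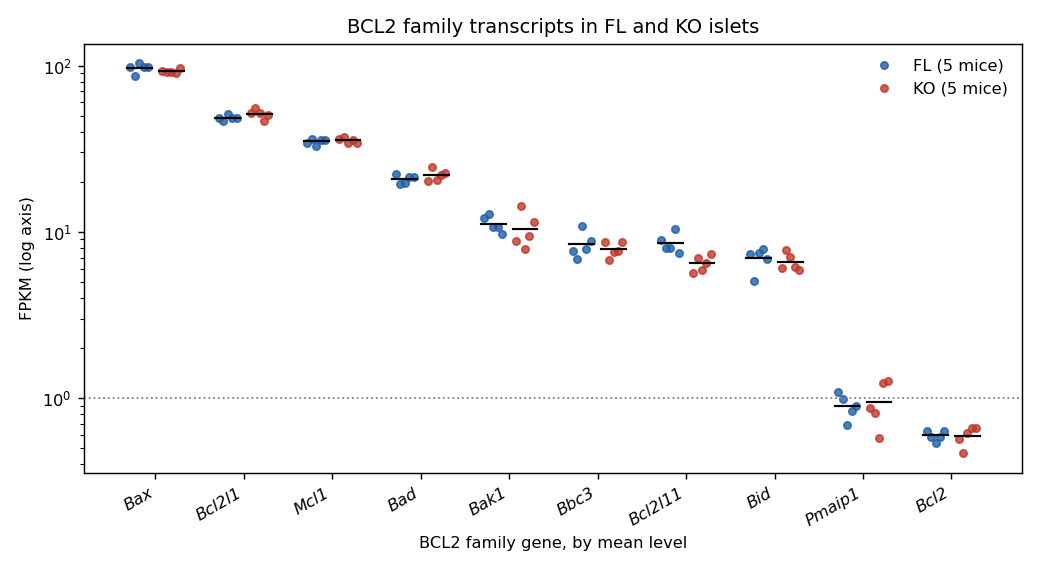
FPKM (log axis) of the 10 BCL2 family genes in each FL (blue) and KO (red) library, ordered by mean level. Points are mice, black lines are group means and the dotted line is the 1 FPKM filter; Bcl2l11 is the gene whose KO points all lie under its FL points.

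Whether loss of β cell FIT2 altered these transcripts was asked with limma on log2(FPKM + 1) over the 13065 genes whose mean reached 1 FPKM in either group. Calls were made at an adjusted p of 0.05 or less. Of the 10 members, 8 passed the filter and 1 of them was called, Bcl2l11, which fell, while 25.5% of all genes tested were called. The other 7 had unadjusted p-values of 0.175 to 0.693 from limma, and the exact Wilcoxon test likewise called 1 member. Falls made up 16.5% of all genes tested and rises 9.05% (2150 and 1183 genes). This split turned with scaling by upper quartile (899 lower and 2007 higher) and by median ratio (1516 and 1625), and was near even by quantile (1704 and 1511) and the same sum (1536 and 1470). The 8 tested members had a median log2 fold change of −0.056, as did all genes tested. The groups did not overlap in 1 of the 8, against 19.1% of all genes tested.

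Bcl2l11 encodes BIM, a BH3-only protein that binds all the main inhibitors and can also engage the effectors directly. The gene (ENSMUSG00000027381.16) lies on the plus strand at chr2:128126038-128162547 (GRCm38). The FL libraries 1 to 5 were at 8.99, 8.04, 8.03, 10.4 and 7.5 FPKM, and the KO libraries 1 to 5 at 5.68, 7.0, 5.92, 6.49 and 7.37 FPKM. Every KO library lay under every FL library, although the highest KO mouse and the lowest FL mouse were close.

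The mean of Bcl2l11 fell by 24.5%, from 8.60 ± 1.16 to 6.49 ± 0.709 FPKM (SD, n = 5). On the log2(FPKM + 1) scale this was a change of −0.35 (SE 0.09, 95% confidence interval −0.56 to −0.15, adjusted p = 0.0163 from limma). The exact two-sided permutation test on the FPKM gave p = 0.00794, the smallest that 5 mice against 5 can give and the value of any gene without overlap. Leaving out any 1 mouse gave values from −0.40 to −0.29, all called. The call was lost with upper-quartile scaling (−0.25, adjusted p = 0.0644 from limma).

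Islet libraries hold several cell types, and in bulk RNA fewer cells of a type and less RNA per cell cannot be told apart. The paper found islet composition, morphology and insulin content not discernibly different between βFIT2KO and floxed mice. Markers of β cells moved in the same direction as Bcl2l11, since 6 of the 7 tested were called lower. These 7 summed to 2273 to 2844 FPKM in FL libraries and to 1511 to 2124 FPKM in KO libraries, and the other 3 listed were at 0. The largest part of the β cell sum was G6pc2, the tested marker not called (1064 to 1438 FPKM in FL and 835 to 1204 in KO). Ins1, Ins2 and Iapp, which define the β cell, and Gcg, which defines the α cell, are listed at 0 in every library. Summed markers of α cells were at 435 to 650 FPKM in FL and 288 to 429 in KO, with 2 of 5 tested called lower. Most of this sum was Ttr (400 to 605 FPKM in FL and 250 to 389 in KO). Duct markers summed to 448 to 526 FPKM in FL and 362 to 419 in KO (1 of 4 tested higher and 1 lower). Most of the duct sum was Krt7, the gene called lower (397 to 484 FPKM in FL and 333 to 396 in KO). Cftr was called higher (means of 0.037 and 2.13 FPKM), and Krt19 and Muc1 were not called. Delta, PP and epsilon cell markers summed to 7875 to 21741 FPKM in FL and 12618 to 17922 in KO (1 of 4 lower). For other cells the sums were higher in KO. Leukocyte markers summed to 50.5 to 68.3 FPKM in FL and 88.3 to 99.7 in KO (2 of 5 tested higher and 1 lower). Most of the leukocyte sum was Lyz2 and Cd68, the 2 called higher (means of 25.7 and 22.8 FPKM in FL, 48.3 and 37.1 in KO). Cd79a was called lower, Adgre1 and Csf1r were not called, and Ptprc was under the filter. Stellate and Schwann cell markers summed to 16.2 to 23.4 FPKM in FL and 28.3 to 35.1 in KO (4 of 4 higher), and endothelial markers to 160 to 186 and 179 to 243 (3 of 6 higher). The part of these shifts in the Bcl2l11 result was not tested. Acinar markers had 0 of 8 called by limma and 0 at an unadjusted p under 0.05. They ranged in sum from 4203 to 11139 FPKM in FL and from 2772 to 20670 in KO, with KO mouse 5 highest. Without KO mouse 5 the Bcl2l11 change was −0.40 (adjusted p = 0.0141 from limma). Without KO mice 3 and 5, left out together after seeing the data, it was −0.37 (adjusted p = 0.0379 from limma). The acinar sum of KO mouse 3 was 2944 FPKM, neither the highest nor the lowest.

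The genes whose log2 values followed Bcl2l11 most closely over the 10 libraries were Wdr18 (Pearson r 0.98), Shkbp1 (r 0.97) and Rnf122 (r 0.95). All 10 libraries share the difference between groups, so these values describe likeness only. Shkbp1 was itself called lower, at 14.1 FPKM in FL and 10.9 in KO, as was Rnf122, at 1.22 and 0.738 FPKM, and Wdr18 was at 13.5 and 12.3 FPKM and not called.

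**Figure D2:**
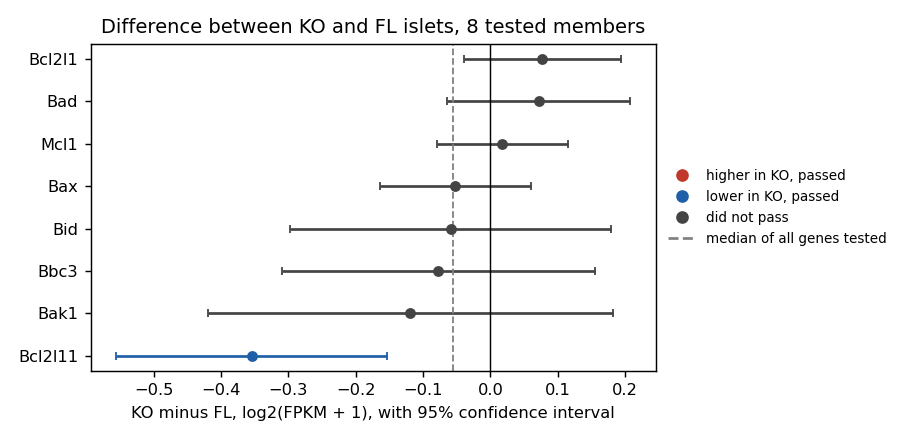
Difference KO minus FL in log2(FPKM + 1) for the 8 tested members, with 95% confidence intervals from limma and the median of all genes tested as a dashed line. The interval of Bcl2l11 (−0.56 to −0.15) lies under 0, and the other 7 intervals span 0.

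The inhibitors did not pass the test. Bcl2l1 encodes BCL-xL, the inhibitor with the highest transcript level here (ENSMUSG00000007659.18, minus strand of chr2:152780668-152831728). It was at 48.3, 46.1, 51.4, 48.3 and 48.2 FPKM in FL 1 to 5 and at 52.1, 55.6, 51.6, 46.3 and 50.4 FPKM in KO 1 to 5. KO mice 1, 2 and 3 lay above all FL mice, KO mouse 4 lay among the lowest, and the groups overlapped. The means of 48.4 ± 1.88 and 51.2 ± 3.35 FPKM (SD, n = 5) gave a log2 change of 0.08 (interval −0.04 to 0.19, adjusted p = 0.319 from limma). Bcl2l1 was called higher under 3 rescalings of the libraries, median ratio (0.14, adjusted p = 0.0464), quantile (0.13, 0.0444) and upper quartile (0.19, 0.0287), all from limma.

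Mcl1 encodes the short-lived inhibitor MCL1 (ENSMUSG00000038612.16, plus strand of chr3:95658788-95663176). Its levels were 34.4, 36.4, 32.8, 35.9 and 35.7 FPKM in FL 1 to 5 and 36.3, 37.1, 34.2, 35.5 and 34.3 FPKM in KO 1 to 5. The groups covered nearly the same range, with means of 35.0 ± 1.43 and 35.5 ± 1.26 FPKM (SD, n = 5) and a log2 change of 0.02 (interval −0.08 to 0.12, adjusted p = 0.800 from limma).

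Bcl2, the founding inhibitor, had the lowest mean, with libraries that overlapped those of Pmaip1 (ENSMUSG00000057329.7, minus strand of chr1:106538178-106714274). It was at 0.636, 0.579, 0.539, 0.585 and 0.638 FPKM in FL 1 to 5 and at 0.563, 0.466, 0.618, 0.657 and 0.663 FPKM in KO 1 to 5. With means of 0.596 ± 0.042 and 0.593 ± 0.082 FPKM (SD, n = 5) it did not reach the filter, and the exact two-sided permutation test gave p = 0.976. Bcl2l1 transcripts exceeded those of Bcl2 in every library, by 75.5 to 95.3 times in FL and by 70.5 to 119 times in KO.

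The effectors did not pass either. Bax, whose product oligomerizes in the outer mitochondrial membrane, is on the minus strand of chr7:45461697-45466898 (ENSMUSG00000003873.10). It was at 97.4, 86.4, 103, 98.1 and 97.4 FPKM in FL 1 to 5 and at 93.3, 92.0, 91.5, 90.3 and 97.1 FPKM in KO 1 to 5. The KO values fell within the FL range, and the means of 96.4 ± 6.08 and 92.9 ± 2.63 FPKM (SD, n = 5) gave a log2 change of −0.05 (interval −0.16 to 0.06, adjusted p = 0.490 from limma), a sign that turned under 3 rescalings.

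Bak1 encodes BAK, the effector that resides in the membrane (ENSMUSG00000057789.13, minus strand of chr17:27019810-27029009). It was at 12.1, 12.7, 10.7, 10.7 and 9.73 FPKM in FL 1 to 5 and at 8.80, 14.4, 7.86, 9.47 and 11.5 FPKM in KO 1 to 5. KO mice held both the highest and the lowest value, and among the tested members Bak1 had the widest interval, −0.42 to 0.18 around a log2 change of −0.12 (adjusted p = 0.564 from limma). Its means were 11.2 ± 1.2 and 10.4 ± 2.59 FPKM (SD, n = 5).

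Of the other BH3-only genes, Bad, Bid and Bbc3 were tested and not called. Bad encodes a partner of BCL-xL whose binding is blocked by phosphorylation (ENSMUSG00000024959.13, plus strand of chr19:6941861-6951899). It was at 22.1, 19.5, 19.6, 21.4 and 21.5 FPKM in FL 1 to 5 and at 20.3, 24.6, 20.4, 21.9 and 22.5 FPKM in KO 1 to 5. The groups overlapped, with means of 20.8 ± 1.21 and 21.9 ± 1.75 FPKM (SD, n = 5) and a log2 change of 0.07 (interval −0.06 to 0.21, adjusted p = 0.433 from limma).

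Bid encodes a protein that caspase-8 cleaves to link death receptors to mitochondria (ENSMUSG00000004446.12, minus strand of chr6:120891930-120916853). It was at 7.38, 5.06, 7.45, 7.90 and 6.85 FPKM in FL 1 to 5 and at 6.06, 7.73, 7.06, 6.17 and 5.86 FPKM in KO 1 to 5. FL mice held both extremes, the means were 6.93 ± 1.11 and 6.58 ± 0.795 FPKM (SD, n = 5), and the log2 change was −0.06 (interval −0.30 to 0.18, adjusted p = 0.725 from limma). This change was −0.15 without FL mouse 2 and −0.015 without FL mouse 4.

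Bbc3 encodes PUMA, a classical p53 target that is also induced through CHOP (ENSMUSG00000002083.12, plus strand of chr7:16308393-16318205). It was at 7.69, 6.89, 10.9, 7.88 and 8.81 FPKM in FL 1 to 5 and at 8.65, 6.79, 7.57, 7.71 and 8.64 FPKM in KO 1 to 5. FL mouse 3 was highest and the remaining libraries intermixed, with means of 8.43 ± 1.52 and 7.87 ± 0.788 FPKM (SD, n = 5). The log2 change of −0.08 (interval −0.31 to 0.15, adjusted p = 0.630 from limma) became 0.0086 without FL mouse 3.

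Pmaip1 encodes NOXA, which binds MCL1 by preference (ENSMUSG00000024521.7, plus strand of chr18:66458533-66465565). It was at 1.09, 0.986, 0.689, 0.838 and 0.893 FPKM in FL 1 to 5 and at 0.866, 0.809, 0.573, 1.24 and 1.27 FPKM in KO 1 to 5. KO mice 4 and 5 were the highest libraries and KO mouse 3 the lowest. The means of 0.900 ± 0.153 and 0.951 ± 0.297 FPKM (SD, n = 5) were under the filter, and the exact two-sided permutation test gave p = 0.738.

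Some members share exonic bases with a neighbor, which matters if reads were counted without regard to strand. The library kit marks strand, but whether counting used it is not given in the sources used here. Bid shares 17.7% of its exonic bases with Bcl2l13, Bad 20.5% with Gpr137, Bak1 7.35% and 18.2% with 2 copies of Ggnbp1 in the annotation, and Bcl2 6.09% with D630008O14Rik, all on the opposite strand, and Bax shares 12.2% with Gm45808 on its own strand. No such neighbor was found for Bcl2l11, Bcl2l1, Mcl1, Bbc3 or Pmaip1. In its highest library Bcl2l13 reached 31.2 FPKM, above Bid, and Gpr137 reached 19.6, a row of Ggnbp1 12.7 and D630008O14Rik 0.021. Gm45808 has no value under that name.

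The levels can be set against each other within a library, since FPKM are per length. The ratio of Bcl2l11 to Mcl1 was 0.261, 0.221, 0.245, 0.291 and 0.210 in FL 1 to 5 and 0.157, 0.188, 0.173, 0.183 and 0.215 in KO 1 to 5, with only KO mouse 5 above the lowest FL mouse. The ratio of Bax to Bcl2l1 was 1.99 ± 0.0653 in FL and 1.82 ± 0.121 in KO (SD, n = 5), with ranges of 1.87 to 2.03 and 1.66 to 1.95 that overlap. These ratios were set up with the levels known and carry no test.

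Of the summed FPKM of the 10 members, the 3 inhibitors held 35.5% ± 1.11 in FL and 37.2% ± 1.12 in KO, the effectors 45.3% ± 0.708 and 44.1% ± 0.805, and the BH3-only genes 19.2% ± 0.705 and 18.7% ± 0.600 (SD, n = 5). The ranges of all 3 shares overlapped between groups. The sum itself came to 237 ± 8.74 FPKM in FL libraries and 234 ± 8.69 FPKM in KO libraries (SD, n = 5). The ratio of Bax to Bcl2 was 163 ± 17.3 in FL and 159 ± 23.8 in KO (SD, n = 5).

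**Figure D3:**
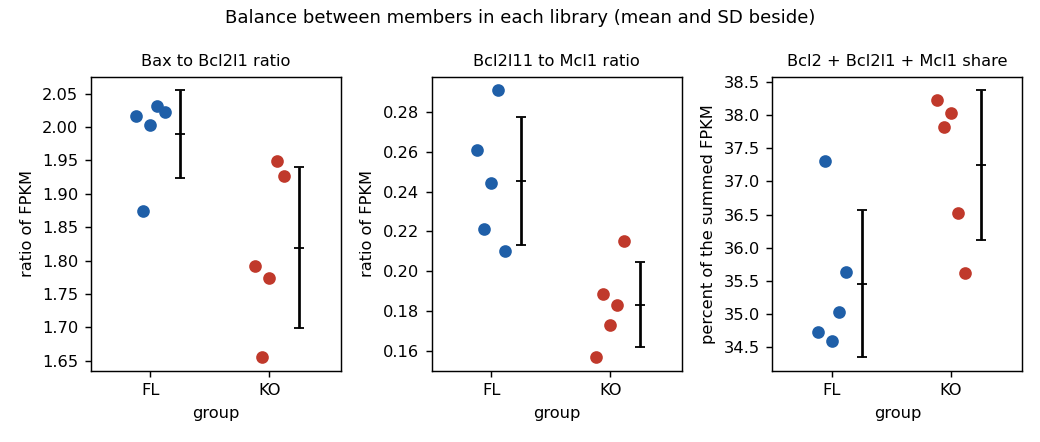
Ratio of Bax to Bcl2l1, ratio of Bcl2l11 to Mcl1, and share of the members' summed FPKM held by Bcl2, Bcl2l1 and Mcl1, for each FL (blue) and KO (red) library, with mean and SD beside (the vertical axes do not start at 0). The KO means lie under the FL means in the first 2 panels (1.82 against 1.99, and 0.183 against 0.246) and above in the third (37.2% against 35.5%), and the groups overlap in each.

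Genes that act on the members were followed as lists. The list of p53 and its targets, beyond the members, had 7 of 14 tested genes called higher and 1 lower, with a median log2 change of 0.24. Cdkn1a, which encodes the cell cycle inhibitor p21, was at 45.4 to 52.2 FPKM in FL and 69.9 to 80.8 in KO, without overlap (log2 change 0.62, adjusted p = 2.6e-05 from limma). Phlda3, an inhibitor of AKT signaling, was at 9.85 to 11.5 FPKM in FL and 17.5 to 23.9 in KO (0.84, adjusted p = 4.1e-05 from limma). Eda2r (0.69), Perp (0.54), Ccng1 (0.38), Tnfrsf10b (0.32) and Mdm2 (0.28), the last encoding the ubiquitin ligase of p53, were also called higher, and Sesn1 (−0.28), a sestrin, was called lower. Ccng1 is the least firm of these, since it was not called when any of FL mice 1, 2, 3 or 5 or KO mice 1, 2, 3 or 4 was left out (adjusted p = 0.0501 to 0.0986 from limma), and Mdm2 was not called by the exact Wilcoxon test (adjusted p = 0.102). Sesn1 was not called without KO mouse 1 (adjusted p = 0.0516 from limma) or when scaled by median ratio (0.0507), the same sum (0.0574) or upper quartile (0.117). Trp53 itself was at 17.6 ± 1.27 and 19.1 ± 1.39 FPKM (SD, n = 5; adjusted p = 0.213 from limma).

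Of the p53 targets among the members, Bax and Bbc3 had log2 changes of −0.05 and −0.08, with intervals that span 0, and Pmaip1 was under the filter. The difference between these members and the rest of the p53 targets was not tested, nor was the part of the marker shifts in the list counts.

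In the list of the CHOP and ATF4 arm of the ER stress response, 2 of 10 genes were called higher and 2 lower, with a median log2 change of 0.0050. The calls were 3 higher and 2 lower by median ratio, quantile and the same sum, and 4 and 1 by upper quartile. Ddit3, which encodes CHOP, a factor known to induce Bcl2l11 and Bbc3 and to repress Bcl2, was at 336 to 456 FPKM in FL and 584 to 720 in KO, without overlap (log2 change 0.75, adjusted p = 0.000163 from limma). Its relation to the levels of these members was not tested. Ppp1r15a, which encodes the phosphatase subunit GADD34, was also higher (0.43, adjusted p = 0.000289 from limma). Chac1, a glutathione-degrading enzyme (−0.37, adjusted p = 0.00129), and Atf5 (−0.37, adjusted p = 0.0195, both from limma) were lower, and Atf5 was not called with upper-quartile scaling (adjusted p = 0.133). Foxo3, a factor known to activate Bcl2l11 and Bbc3, was at 17.6 ± 0.690 and 18.2 ± 1.63 FPKM (SD, n = 5; adjusted p = 0.655 from limma).

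**Figure D4:**
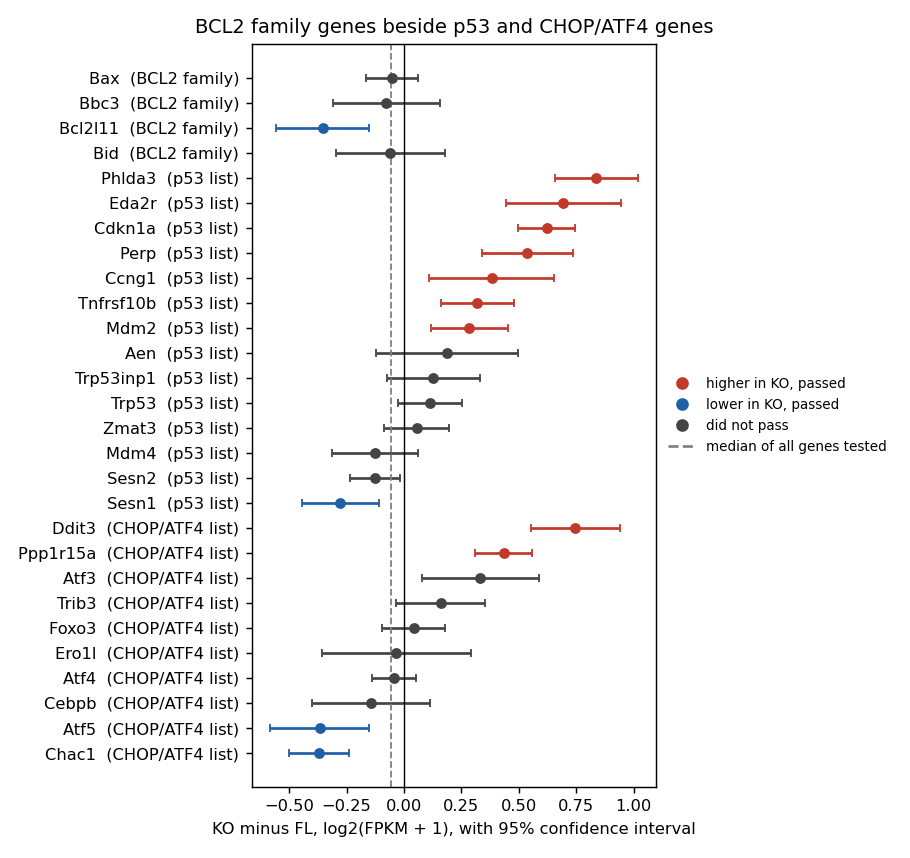
Difference KO minus FL in log2(FPKM + 1), with 95% confidence intervals from limma, for 4 BCL2 family genes and for the tested genes of the p53 list and the CHOP and ATF4 list. Colors mark genes called higher (red) or lower (blue) and the dashed line is the median of all genes tested; 7 of 14 p53 list genes lie in the called higher class, and Bcl2l11 in the called lower class.

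The promoters of Bcl2l11 and Bbc3 are shown because they were the members whose RefSeq windows hold the forkhead letters GTAAACA, which FOXO factors recognize. RefSeq (GRCm38.p6) gave 15 windows of 300 bases, from 250 before to 50 after a start, for 9 of the 10 members. No window was available for Pmaip1, so it was not searched. The 250 bases before 1 start of Bcl2l11 and of Bbc3 are printed, plus strand, 5′ to 3′. They span chr2:128125788-128126037 for Bcl2l11 and chr7:16310011-16310260 for Bbc3. The capitals mark GTAAACA, which begins 227 bases before this start of Bcl2l11 as written, and its reverse complement TGTTTAC, 167 bases before this start of Bbc3. Bcl2l11 has 2 such windows and Bbc3 has 3, the one printed for Bbc3 lies inside the gene as GENCODE places it, and the other windows of both genes hold no match.
Bcl2l11: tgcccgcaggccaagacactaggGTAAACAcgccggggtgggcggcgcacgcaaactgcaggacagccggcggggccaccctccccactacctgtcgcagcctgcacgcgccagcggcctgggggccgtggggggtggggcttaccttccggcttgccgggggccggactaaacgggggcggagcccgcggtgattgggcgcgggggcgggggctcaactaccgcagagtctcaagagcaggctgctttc
Bbc3: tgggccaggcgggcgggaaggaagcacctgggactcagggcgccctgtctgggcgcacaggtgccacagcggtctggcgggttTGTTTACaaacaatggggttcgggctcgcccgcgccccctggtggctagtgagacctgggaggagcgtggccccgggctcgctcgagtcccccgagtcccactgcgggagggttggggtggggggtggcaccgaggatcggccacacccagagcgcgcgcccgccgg

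Both strands were searched, and 3.65% of all 32851 windows hold GTAAACA, against 2 of the 15 member windows. The CHOP and C/EBP-ATF letters TGATGNAA were in none of the 15 and in 3.97% of all windows. The letters GGGCGG, an SP1-type GC box, were in 10 of the 15, from 7 genes, and in 35.7% of all windows, and CCAAT was in 4 of the 15 and in 37.4%. A p53 half-site was found only for Bax among the 9 members searched, Pmaip1 having no window, and in 8.36% of all windows. These are matches of letters and a gene with several starts has several windows.

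Downstream of the members, the list of the apoptosome, caspases and inhibitors of apoptosis had 2 of 18 tested genes called, both lower, with a median log2 change of −0.0049. This direction turned with scaling by median ratio (2 called higher and 1 lower) and by upper quartile (4 and 1). The calls were even by quantile and by the same sum (2 and 2 in each). Fadd, the death receptor adaptor, was one of the 2 called lower without rescaling, with a log2 change of −0.20 (adjusted p = 0.0108 from limma). It was not called after scaling by median ratio (adjusted p = 0.0507) or upper quartile (0.264). Casp9 was at 6.64 ± 0.399 and 6.41 ± 0.654 FPKM and Apaf1, which forms the apoptosome with it, at 2.33 ± 0.387 and 3.02 ± 0.539 FPKM (SD, n = 5), neither called (adjusted p = 0.660 and 0.104 from limma). Apaf1 was called higher without FL mouse 1 (adjusted p = 0.0486), without KO mouse 4 (0.0297) or with upper-quartile scaling (0.0354, all from limma).

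Among 15 other BCL2 relatives, 9 were tested and 1 was called. That gene was Bnip3, a hypoxia-induced mitophagy receptor, at 115 to 162 FPKM in FL and 60.2 to 133 FPKM in KO (log2 change −0.75, adjusted p = 0.0128 from limma), and was not called by the exact Wilcoxon test (adjusted p = 0.102). Its highest KO mouse, number 3, stood apart from the other 4, which were at 60.2 to 79.9 FPKM. The inhibitor Bcl2l2 was at 42.9 ± 4.79 and 44.6 ± 1.11 FPKM, the effector-like Bok at 4.41 ± 1.26 and 3.25 ± 0.902 FPKM and the BH3-only Bmf at 5.15 ± 1.73 and 4.73 ± 0.267 FPKM (SD, n = 5), with adjusted p of 0.569, 0.166 and 0.819 from limma. The BH3-only Hrk was at 0.121 to 0.250 FPKM in FL and 0.533 to 0.961 in KO, and Bcl2l14 at 0.267 to 0.418 and 0.664 to 0.918. Both were under the filter and named after their values were seen.

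Of 24 binding partners and modifiers of the members, all tested, 2 were called higher and 1 lower. Akt1, a kinase that phosphorylates BAD, rose from 109 ± 6.53 to 142 ± 18.7 FPKM (SD, n = 5; log2 change 0.37, adjusted p = 0.00812 from limma). Pim1, another kinase that acts on BAD, rose from 3.63 ± 0.297 to 4.84 ± 0.574 FPKM (log2 change 0.33, adjusted p = 0.0110 from limma), with overlap between the groups, and was not called by the exact Wilcoxon test (adjusted p = 0.0642). Bag4, a co-chaperone that binds death receptors, fell from 14.5 ± 0.986 to 11.3 ± 0.965 FPKM (log2 change −0.33, adjusted p = 0.00408 from limma). The shares called in this list (12.5%), in the other relatives (11.1%) and in the apoptosome list (11.1%) were under the 25.5% of all genes tested, and those in the p53 list (57.1%) and the CHOP and ATF4 list (40.0%) were above it, as a description with no test. The apoptosome list had 5 calls in place of 2 without FL mouse 1 or with upper-quartile scaling, so its low share is not firm, and the binding partners had 5 in place of 3 without KO mouse 2 or with upper-quartile scaling.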

How the data were processed

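Islet poly(A) RNA from 5 FL and 5 KO mice was sequenced as single-end reads of 75 bases with a stranded kit. The authors deposited 1 table of FPKM, and the submitters' processing notes name STAR 2.5.2a, Cuffnorm 2.2.1 and the builds mm10 and GRCm38. All columns belong to mapped mice. FPKM do not hold read numbers, so depth is unknown and no counting interval is given. The spacing of low values puts relative depth at 1 to 2.41 times that of FL mouse 1, and FPKM sums were 627084 to 675470. FPKM are per gene, so isoforms cannot be told apart. No 2 libraries were identical. Whether the mice came from separate litters is not given in the sources used here. The p-values set the difference between groups against the spread among these mice. They treat the mice as independent, which was not tested.

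The test between groups was limma 3.58.1 (lmFit, eBayes with a trend, R 4.3.3) on log2(FPKM + 1) for genes whose mean reached 1 FPKM in either group, with no covariate and Benjamini-Hochberg adjustment over all 13065 genes. Fold changes on this scale understate changes of low genes. An exact two-sided permutation test on FPKM was run per gene. Members and lists were chosen with earlier results of these data known. Named genes are all members, each list's called genes up to the 8 with the largest change, 9 regulators, relatives and caspases whatever their values, and the 3 genes most correlated with Bcl2l11. The values of 2 genes under this rule are not reported here, though they are part of the counts. Likeness is Pearson r over the libraries. Coordinates, overlaps and coding bases come from GENCODE M21, in which 46841 of the 47340 gene identifiers were found without their version. Promoters come from RefSeq. The smallest permutation p is 0.00794.

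Alternatives were pseudocounts of 0.1 and 0.01, no filter or one at 5 FPKM, 4 rescalings (median ratio, upper quartile, quantile, same sum), limma without trend, robust or with sample weights, an exact Wilcoxon test, the replicate number as a block, an adjusted p of 0.01, a 1.5-fold minimum and each mouse left out. Leaving out KO mice 3 and 5 was added after seeing the data. On simulated data for these 13065 genes, 86 of 100 genes changed by 1 and 77 of 100 changed by 0.5 on the log2 scale were called, all in the right direction, with 10 of 12865 unchanged genes called. Values were drawn independently, and far fewer genes were changed than the 25.5% called in the real data. No change under 0.5 was simulated and every tested member changed by less, so the simulation cannot give the power for the members. Python 3.11.15, pandas 2.3.3, numpy 2.4.6, scipy 1.17.1 and matplotlib 3.10.9 were used.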

Additional observations from a re-analysis of the deposited data

Results flagged for a closer look

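In 35 named genes, the highest or lowest mouse of a group of 5 stood apart from the rest in 5 of 70 groups, where chance gives about 3.5 (1 in 20). None of the 5 is among the 10 BCL2 family genes. Bok was at 6.62 FPKM in FL mouse 1, above the other FL mice at 3.60 to 4.27. Bnip3 was at 133 FPKM in KO mouse 3, above the other KO mice at 60.2 to 79.9. Pim1 was at 4.15 FPKM in FL mouse 3, above 3.42 to 3.59. Trp53 was at 21.5 FPKM in KO mouse 5, above 18.2 to 18.9. Atf5 was at 646 FPKM in FL mouse 3, above 493 to 532.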

How the results depend on the processing

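Bcl2l11 was lower in KO in all 26 alternatives, from −0.40 to −0.25 (adjusted p 0.00624 to 0.0644 from limma or the Wilcoxon test). The count of members called lower was 0 with upper-quartile scaling, with the replicate block, with an adjusted p of 0.01 and with a 1.5-fold minimum, and 1 when any mouse was left out. Members called higher were 1 (Bcl2l1) with median ratio, quantile and upper-quartile scaling. Upper-quartile scaling moved the median of all genes by 0.105. Directions of uncalled genes turned as follows: Bax to 0.0069 (median ratio), 0.0047 (quantile) and 0.063 (upper quartile), Bid to 0.041, Bbc3 to 0.026 and Bmf to 0.037 (upper quartile), Casp9 to 0.0053 (median ratio) and 0.054 (upper quartile), Mcl1 to −0.0048 and Bbc3 to 0.0086 without FL mouse 3, and Bmf to 0.061 and 0.031 without FL mouse 4 or 5. Without 1 mouse, Mcl1 ranged from −0.0048 to 0.031, Bbc3 from −0.14 to 0.0086 and Bmf from −0.15 to 0.061. The cause was not tested.

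Over all genes, 2150 were called lower and 1183 higher. These counts were 899 and 2007 with upper-quartile scaling, 1044 and 622 at an adjusted p of 0.01 and 290 and 349 with a 1.5-fold minimum. The split moved to 1516 and 1625 with median ratio, to 1704 and 1511 with quantile scaling and to 1536 and 1470 with the same sum. Without 1 mouse they were 1589 to 2367 and 936 to 1130.

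Calls in either direction among other relatives (1) were 0 by Wilcoxon and at an adjusted p of 0.01, 3 with no filter and the same sum, and 2 with no trend and sample weights. In the apoptosome list (2) they were 4 with no filter, quantile, the same sum and sample weights, 5 with upper quartile and without FL mouse 1, 1 at 0.01 and 0 at 1.5-fold, and 2 to 5 without 1 mouse. Both calls were lower, and 4 of the 5 with upper quartile were higher. Among binding partners (3) they were 5 with sample weights, upper quartile and without KO mouse 2, 0 at 1.5-fold, and 3 to 5 without 1 mouse. In the p53 list (8) they were 5 at 0.01 and 3 at 1.5-fold, and in the CHOP list (4) 1 at 1.5-fold.

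Samples of FL and KO share only a replicate number. The deviations of same-numbered mice had correlations of −0.102 to 0.00305, with 0 of 5 pairs over 0.1 and 0 of 10 mice closest to their own number. With the replicate block, 0 members were called lower (Bcl2l11 adjusted p = 0.0510 from limma), 1 gene of the apoptosome list was called, Pim1 (0.0531) and Ccng1 (0.0514) were not called, and over all genes 1494 were called lower and 874 higher. Depth is unknown, and members under 1 FPKM are the least certain.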
